A study of Mus musculus with 15 samples.

Results

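Long noncoding RNAs (lncRNAs) are transcripts that are not translated into a defined protein. Malat1 and Neat1 are transcribed from neighbouring genes and stay in the nucleus. Malat1 gathers in nuclear speckles, where splicing factors are stored, and Neat1 is the scaffold on which paraspeckles are built. Gas5 and the Snhg RNAs are small nucleolar RNA (snoRNA) hosts, whose introns release snoRNAs that guide the modification of ribosomal RNA, while the spliced exons are often removed by nonsense-mediated decay. Kcnq1ot1 is read from the paternal copy of an imprinted domain and silences genes of that domain in cis.

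The table was searched for 9 such RNAs by symbol, namely Malat1, Neat1, Gas5, Snhg1, Snhg5, Snhg8, Snhg12, Snhg15 and Kcnq1ot1, and all 9 were found among its 55335 genes, with 1 row each. The values are FPKM (fragments per kilobase of transcript and per 1000000 mapped fragments) from RNA-seq of TAMs, the tumor-associated macrophages, isolated by FACS from tumors that Hepa1-6, a hepatoma line of the mouse, formed in the liver of C57BL/6 mice. The 3 groups held 5 samples each, from tumors of control cells, of cells that overexpressed miR-144 and of cells that overexpressed miR-451a. The miRNAs were introduced into the tumor cells by lentivirus and not into the TAMs, and no age of the mice is given in the sources used here. Nothing states that the samples of a group came from separate mice, and the study gives a smaller n for part of its work on these libraries than the number of samples per group in the labels. Some samples may therefore share a source, and the p-values measure only the spread between these samples, which may be technical. Both comparisons with control share the same 5 control samples.

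The depth read from steps between low values was 15.7 to 30.5 M fragments per sample, with a median of 23.4 M. These depths are approximate, because only 44.6% to 56.9% of low values lay on a step, where 10% would by chance. Macrophage genes were abundant in all samples, with 7 of 7 markers present and a summed level of 8690 to 9530 FPKM in control, 14700 to 16500 with miR-144 and 14400 to 15600 with miR-451a. Most of this sum was Lyz2 (6890, 13200 and 12600 FPKM on average), and Fcgr1 rose most (18.0, 122 and 118 FPKM), while Cd68 fell, from 1440 to 919 and 910 FPKM (log2 fold changes -0.65 and -0.67, adjusted p = 2.59e-09 and 1.85e-09 in limma). The 5 hepatocyte markers were listed at 0 in all 15 samples. The summed fibroblast and stellate cell markers, mostly Col1a1 and Col1a2, moved with the groups, from 97.2 to 121 FPKM in control to 131 to 190 and 166 to 210 with miR-144 and miR-451a, while Lrat was listed at 0. The Kupffer cell sum, almost all Cd5l, was 3.30 to 3.77 FPKM in control and 16.0 to 50.1 over the miRNA samples, with Clec4f listed at 0. The neutrophil sum, almost all Mmp8, was 12.7 to 18.3 FPKM in control and 3.22 to 6.37 over the miRNA samples, with Retnlg at 0, and the T cell sum, almost all Cd4, was 1.17 to 1.55 and 5.27 to 9.45 FPKM, with Cd3e and Cd3g at 0. The hepatoma sum, of the tumor cells, was 0.622 to 0.774 FPKM in control and 0.0958 to 0.240 over the miRNA samples. It was mostly Cdh1 in control (means of 0.469, 0.00549 and 0.0111 FPKM), while Afp had means of 0.203, 0.146 and 0.148 FPKM and Epcam was at 0. The endothelial sum was 3.70 to 4.29 FPKM in control and 4.65 to 5.93 over the miRNA samples, with Kdr higher in each (adjusted p = 0.00272 and 0.000807 in limma), and the B cell sum, almost all Cd79b, was 0.138 to 0.375 and 1.11 to 1.73 FPKM. The NK cell sum was 0.192 to 0.416 FPKM in control and 0.0323 to 0.168 over the miRNA samples, and the dendritic cell sum was 0.281 to 0.420 and 0.401 to 0.658 FPKM. Of the proliferation markers, Mki67 fell (-0.44 and -0.32 on the log2 scale) and Cdk1 rose (0.29 and 0.38). The part of these cells in the results was not tested, and in bulk samples fewer cells of a type cannot be told apart from less RNA per cell.

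The agents that define the groups are encoded in 1 cluster on chromosome 11, and their mature sequences are shown with the seed (bases 2 to 8) in capitals, as in RefSeq on GRCm38.p6. They share no seed.
mmu-miR-144-3p: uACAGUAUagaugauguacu
mmu-miR-144-5p: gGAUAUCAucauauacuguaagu
mmu-miR-451a: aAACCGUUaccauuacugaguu

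Many snoRNA hosts belong to the 5′ TOP transcripts, whose first bases are a run of C and T that ties their translation to growth signals. The start windows of the 6 snoRNA hosts are shown for that reason, from 10 bases before to 30 bases from the start in RefSeq on GRCm38.p6, with a run of at least 5 C and T that overlaps the 3 bases on either side of the start in capitals. The build of the deposited table is not given in the sources used here.
Gas5, first start, chr1:161034591-161034630, plus strand: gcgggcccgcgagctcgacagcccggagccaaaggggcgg
Gas5, second start, chr1:161035156-161035195, plus strand: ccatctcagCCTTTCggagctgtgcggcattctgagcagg
Snhg1, chr19:8723477-8723516, plus strand: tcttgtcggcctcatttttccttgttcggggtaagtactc
Snhg5, chr9:88522868-88522907, minus strand: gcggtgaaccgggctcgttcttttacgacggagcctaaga
Snhg8, chr3:123508307-123508346, minus strand: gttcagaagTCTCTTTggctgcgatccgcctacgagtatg
Snhg12, chr4:132308668-132308707, plus strand: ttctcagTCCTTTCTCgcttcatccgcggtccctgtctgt
Snhg15, chr11:6528731-6528770, minus strand: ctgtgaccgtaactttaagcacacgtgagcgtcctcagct

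RefSeq gives 9 windows for these RNAs, of which Gas5 has 2, Neat1 has none and each other RNA has 1. The run was found in 3 of them, those of the second Gas5 start, Snhg8 and Snhg12, and in 24.2% of all 32851 windows, searched on the transcribed strand. This was the second of 2 rules tried, and it was set after these windows had been seen. The first rule asked for a run of at least 5 C and T that opens with C and begins within 5 bases of the start, and it held for 1 of 9 windows, that of Gas5, and for 14.8% of all windows. Neither count bears on the changes described next.

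Of the 9 RNAs, 5 rose in TAMs of either miRNA group. These were Malat1 and the snoRNA hosts Gas5, Snhg5, Snhg8 and Snhg12, with rises of the mean FPKM of 27.9% to 43.1% with miR-144 and 18.8% to 52.5% with miR-451a. The other 4, Neat1, Snhg1, Snhg15 and Kcnq1ot1, did not pass the test in either comparison, and no RNA fell. The tests were made in limma on log2(FPKM + 1) on 11419 genes whose mean reached 1 FPKM, and an adjusted p (Benjamini-Hochberg) under 0.05 was taken as a call. In the same fit, miR-144 gave 47.1% of all genes as higher and 20.1% as lower, and miR-451a gave 48.1% as higher and 20.3% as lower, so that most genes above this level differed from control. Across all genes, the median log2 fold change was 0.13 for miR-144 and 0.14 for miR-451a. Among the 8 RNAs in that fit it was 0.35 and 0.23.

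**Figure D1:**
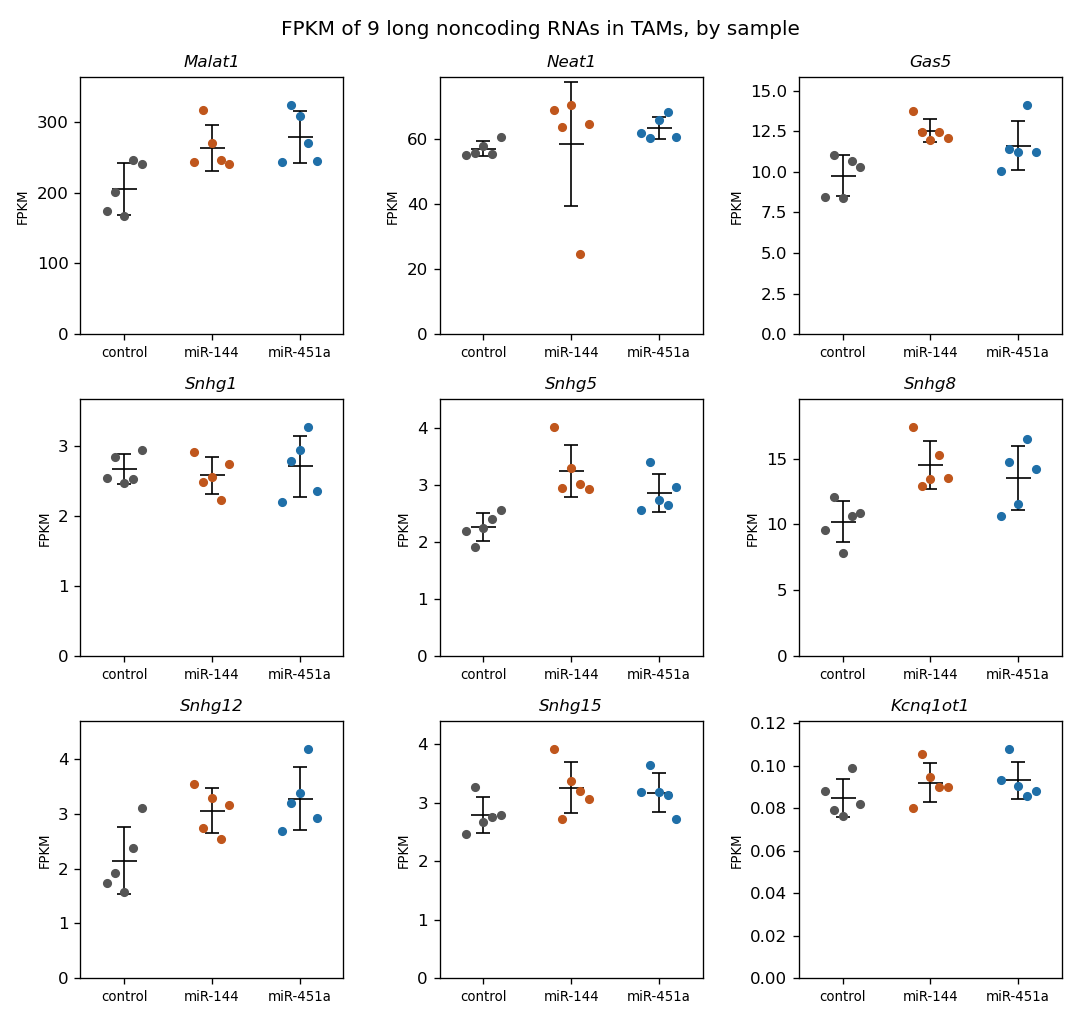
FPKM of each RNA in the 15 samples (vertical axes in FPKM, starting at 0), with the 5 samples of each group as points and the mean and SD in black. Gas5, Snhg5 and Snhg8 lay above all control samples in all 5 miR-144 samples, and a single miR-144 sample of Neat1, at 24.6 FPKM, lay below all others.

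The levels spanned a wide range. Over all 15 samples the mean was 248.7 FPKM for Malat1, 59.5 for Neat1, 12.8 for Snhg8, 11.3 for Gas5, 3.07 for Snhg15, 2.83 for Snhg12, 2.80 for Snhg5, 2.65 for Snhg1 and 0.0900 for Kcnq1ot1. FPKM is a level per length. The order between genes is approximate, since the transcripts of a gene can differ in length (711 to 20771 bases for Neat1). How fragments were divided between them is not given in the sources used here. Malat1 ranked 117th by mean FPKM in the table. The ranges of Snhg8 and Gas5 overlapped, as did those of Snhg15, Snhg12, Snhg5 and Snhg1, while Malat1, Neat1 and Kcnq1ot1 overlapped no neighbour in this order.

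Malat1 (ENSMUSG00000092341) is placed by GENCODE M21 on the minus strand of chromosome 19, 5795690 to 5802672. In control TAMs it was 174, 201, 167, 246 and 240 FPKM in replicates 1 to 5. With miR-144 it was 243, 316, 270, 245 and 240 FPKM, and with miR-451a it was 243, 324, 308, 270 and 244 FPKM. Control replicates 4 and 5 reached the lower miRNA samples, so that the groups overlapped, while control replicates 1 to 3 lay below every miRNA sample. The log2 fold changes were 0.36 ± 0.12 for miR-144 and 0.44 ± 0.12 for miR-451a (SE, adjusted p = 0.0152 and 0.00456 in limma).

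Neat1 (ENSMUSG00000092274, chromosome 19, 5824708 to 5845478, minus strand) was 55.0, 55.7, 57.8, 55.2 and 60.5 FPKM in control. With miR-451a it was 61.7, 60.2, 65.7, 68.1 and 60.6 FPKM. With miR-144 it was 68.7, 63.6, 70.4, 24.6 and 64.6 FPKM, so that replicate 4 was below all control samples and the other 4 were above them. The log2 fold changes were -0.05 ± 0.21 for miR-144 and 0.15 ± 0.21 for miR-451a (SE, adjusted p = 0.842 and 0.550 in limma). Without miR-144 replicate 4 they were 0.23 (adjusted p = 0.000563 in limma) and 0.15 (adjusted p = 0.00684). The miR-144 mean was then 66.8 ± 3.27 FPKM (SD, n = 4), against 56.9 ± 2.32 (SD, n = 5) in control.

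The table has a separate row for Gm27505 (ENSMUSG00000098974), annotated as misc_RNA on the same strand within Neat1, at bases 732 to 841 from its start. Whether Gm27505 is a transcript apart from Neat1 cannot be told from these values. It is printed because it lies within Neat1 and was high in the sample where Neat1 was low, and it was chosen after its values had been seen. The other same-strand rows within Neat1, Gm27533 and Gm28006, were under 0.01 FPKM in all 15 samples. It spans chr19:5844638-5844747 on the minus strand of GRCm38 and is 110 bases long.
Gm27505: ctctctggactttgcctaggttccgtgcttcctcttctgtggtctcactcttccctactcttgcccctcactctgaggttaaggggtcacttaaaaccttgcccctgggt

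Gm27505 was 591 FPKM in miR-144 replicate 4, near the highest of all 15 samples (595), where Neat1 was lowest. The ratio of Gm27505 to Neat1 was 24.0 in that sample and 7.99 to 8.67 in the other 14. Gm27505 was 475 ± 16.8 FPKM in control, 564 ± 33.5 with miR-144 and 521 ± 31.3 with miR-451a (SD, n = 5 each). Its log2 fold changes were 0.25 (adjusted p = 0.000319 in limma) and 0.13 (adjusted p = 0.0231). How fragments were divided between the 2 overlapping rows is not given in the sources used here, and its part in the low Neat1 value was not tested.

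**Figure D2:**
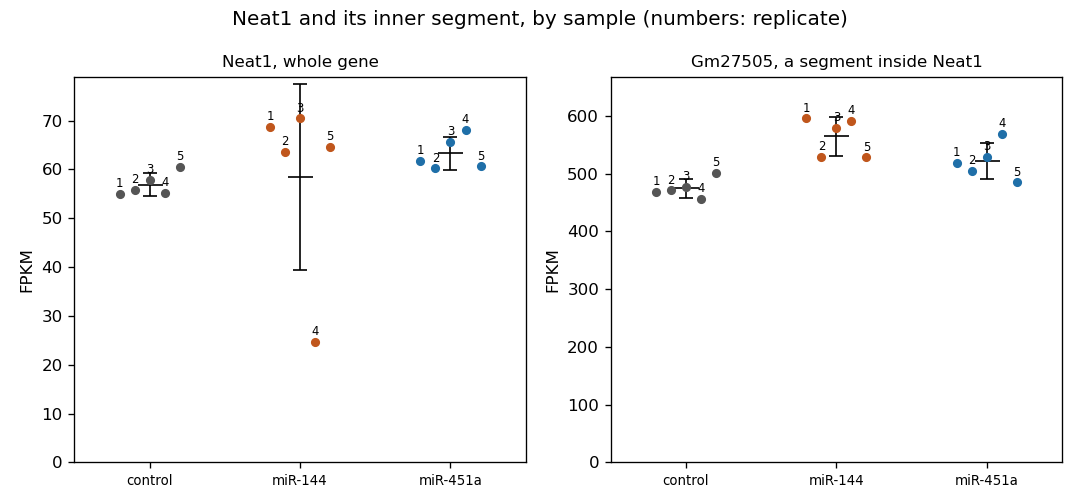
FPKM of Neat1 (left) and of Gm27505 inside it (right) by sample, with replicate numbers beside the points and the mean and SD of each group in black. Replicate 4 of the miR-144 group was lowest for Neat1, at 24.6 FPKM, and at 591 FPKM for Gm27505.

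Gas5 (ENSMUSG00000053332, chromosome 1, 161034422 to 161038539, plus strand) hosts snoRNAs and is known as a decoy of the glucocorticoid receptor. It was 8.42, 11.1, 8.40, 10.7 and 10.3 FPKM in control. With miR-144 it was 13.8, 12.5, 12.0, 12.4 and 12.1 FPKM, all above control. With miR-451a it was 10.1, 11.4, 11.2, 14.1 and 11.2 FPKM, where replicate 1 lay within the control range. The log2 fold changes were 0.34 ± 0.09 for miR-144 and 0.23 ± 0.09 for miR-451a (SE, adjusted p = 0.00282 and 0.0287 in limma). The second was lost without control replicate 1 (adjusted p = 0.0793), control replicate 3 (0.0799) or miR-451a replicate 4 (0.0788 in limma). That call was also lost after median centring and after quantile normalization. Over the alternative settings its log2 fold change was as low as 0.083. The first 428 bases of the Gas5 gene overlap Zbtb37 on the other strand, which also moved with the groups (means of 0.955, 1.37 and 1.62 FPKM for control, miR-144 and miR-451a, without overlap between control and either). The strandedness of the libraries is not given in the sources used here, so reads of the 2 genes cannot be told apart where they overlap.

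Snhg5 (ENSMUSG00000097195, chromosome 9, 88521050 to 88522929, minus strand) hosts Snord50a and Snord50b. It was 2.21, 1.92, 2.26, 2.41 and 2.57 FPKM in control and 4.03, 2.95, 3.31, 3.03 and 2.94 FPKM with miR-144. With miR-451a it was 2.57, 3.41, 2.74, 2.66 and 2.97 FPKM. All 10 miRNA samples lay above all control samples, although the lowest miR-451a sample (2.572) was just above the highest control sample (2.565). The log2 fold changes were 0.37 ± 0.08 (SE, adjusted p = 0.000562 in limma) and 0.24 ± 0.08 (SE, adjusted p = 0.0120). The miR-451a call was lost after median centring and after quantile normalization. Over the alternative settings its log2 fold change was as low as 0.075.

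Snhg8 (ENSMUSG00000104960, chromosome 3, 123507552 to 123508404, minus strand) hosts Snora24. It was 9.61, 12.1, 7.87, 10.6 and 10.9 FPKM in control, and 17.4, 12.9, 13.4, 15.3 and 13.6 FPKM with miR-144, with no overlap. With miR-451a it was 10.6, 14.8, 11.5, 16.5 and 14.2 FPKM, and replicates 1 and 3 lay within the control range. The log2 fold changes were 0.47 ± 0.12 (SE, adjusted p = 0.00324 in limma) and 0.37 ± 0.12 (SE, adjusted p = 0.0149).

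Snhg12 (ENSMUSG00000086290, chromosome 4, 132308623 to 132311024, plus strand) hosts Snora16a, Snora44, Snora61 and Snord99. It was 1.75, 1.93, 1.58, 2.38 and 3.10 FPKM in control, where replicate 5 lay within the range of both miRNA groups. With miR-144 it was 3.55, 2.74, 3.29, 2.54 and 3.16 FPKM, and with miR-451a it was 2.69, 3.19, 3.38, 4.19 and 2.92 FPKM. The log2 fold changes were 0.38 ± 0.12 (SE, adjusted p = 0.0125 in limma) and 0.45 ± 0.12 (SE, adjusted p = 0.00409).

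The groups did not overlap with miR-144 for 3 RNAs, Gas5, Snhg5 and Snhg8, where 37.9% of all genes tested were higher without overlap. Only Snhg5 did with miR-451a, where 38.8% of all genes did. These shares show that such a separation was common in these data.

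Snhg1 (ENSMUSG00000108414, chromosome 19, 8723475 to 8726443, plus strand), known as the U22 host gene, was 2.66 ± 0.213 FPKM in control, 2.58 ± 0.263 with miR-144 and 2.71 ± 0.435 with miR-451a (SD, n = 5 each). Its log2 fold changes were -0.03 ± 0.08 and 0.01 ± 0.08 (SE, adjusted p = 0.709 and 0.899 in limma). Snhg15 (ENSMUSG00000085156, chromosome 11, 6525591 to 6528760, minus strand), the host of Snora9, was 2.79 ± 0.301, 3.26 ± 0.440 and 3.17 ± 0.330 FPKM in the same order. Its log2 fold changes were 0.17 ± 0.08 and 0.14 ± 0.08 (SE, adjusted p = 0.0684 and 0.121 in limma). The groups overlapped for both RNAs.

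Kcnq1ot1 (ENSMUSG00000101609, chromosome 7, 143203458 to 143296549, minus strand) had 0.0848 ± 0.00895 FPKM in control, 0.0921 ± 0.00917 with miR-144 and 0.0932 ± 0.00879 with miR-451a (SD, n = 5 each). Its transcript of 93092 bases makes this an implied 136 to 243 fragments per sample, which exceeds the floor (3 fragments) in each of the 15 samples. It was below 1 FPKM and was therefore taken from the fit without a filter, over 29540 genes, where miR-144 gave 23.1% of genes as higher and miR-451a gave 24.5%. The log2 fold change was 0.01 ± 0.01 (SE) in each comparison (adjusted p = 0.496 and 0.416 in limma), on a scale that understates changes at this level. Kcnq1, which lies on the other strand, was 0 to 0.0265 FPKM.

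**Figure D3:**
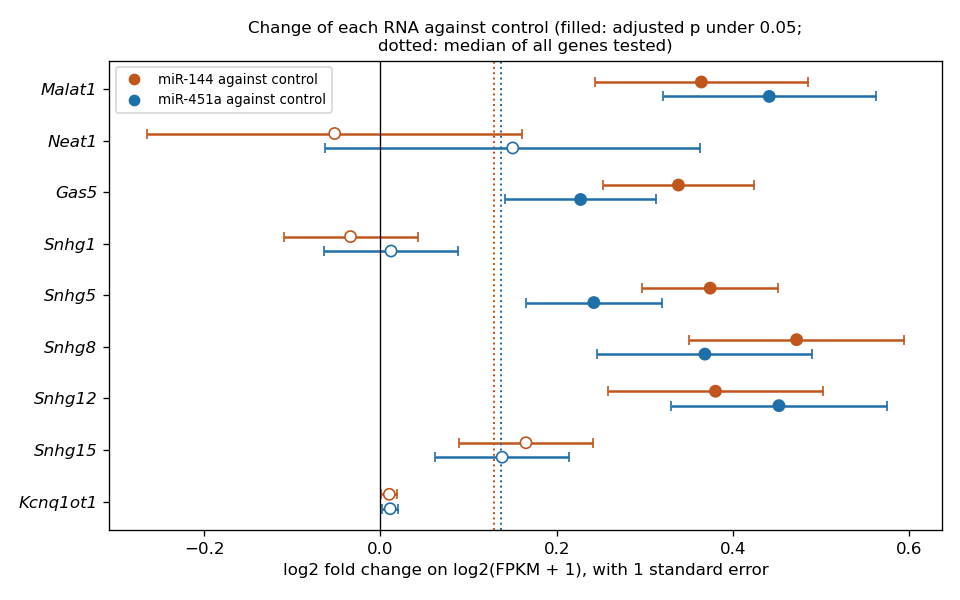
Log2 fold change of each RNA against control on the log2(FPKM + 1) scale, with 1 SE, for miR-144 (orange) and miR-451a (blue). Filled points had an adjusted p under 0.05, and the dotted lines mark the medians of all genes tested, 0.13 and 0.14.

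Because the median of all genes was itself shifted upwards in both comparisons, the calls were repeated on other scalings of the samples. After median centring, which takes that shift away, Gas5, Snhg5 and Snhg8 were higher with miR-144, where 30.8% of all genes were, and Malat1 and Snhg12 with miR-451a, where 31.3% were. After quantile normalization Malat1, Gas5, Snhg5 and Snhg8 were higher with miR-144 and Malat1 and Snhg12 with miR-451a, where 32.9% and 33.7% of all genes were. Rescaling to TPM, or without the genes that hold over 1% of the summed FPKM, kept all 5 RNAs called in each comparison, but these scalings also raised the share of all genes called higher, to 53.7% and 55.6% with TPM and 48.4% and 49.5% without the abundant genes. Over these scalings and the FPKM as deposited, the RNAs called throughout were therefore Gas5, Snhg5 and Snhg8 with miR-144, and Malat1 and Snhg12 with miR-451a. The share of all genes called throughout was not counted, so these RNAs cannot be set against it. Each scaling alone called at least 30.8% and 31.3% of all genes higher. Whether an RNA differs between the miRNAs in this respect is not shown by these calls.

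**Figure D4:**
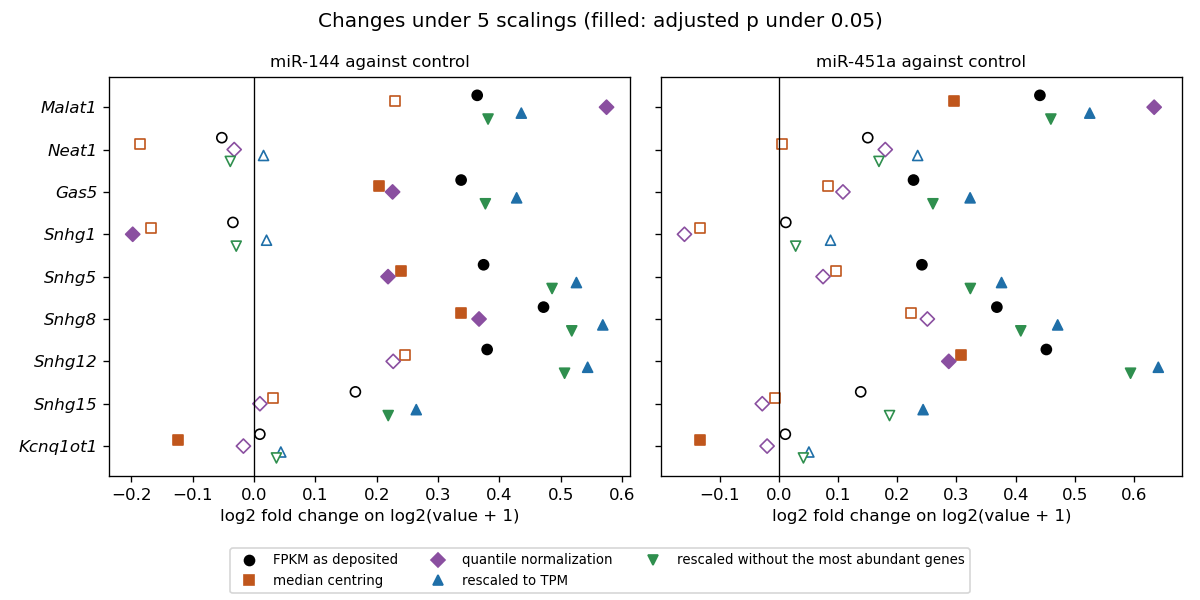
Log2 fold change of each RNA on the log2(value + 1) scale under 5 scalings, for miR-144 (left) and miR-451a (right) against control. Filled symbols had an adjusted p under 0.05, and median centring and quantile normalization placed most RNAs lower than the FPKM as deposited did.

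The miRNA groups were compared directly to ask whether either miRNA left a different mark on these RNAs. In limma, no RNA passed the threshold on the adjusted p between the miRNA groups (0% of all 11419 genes), and none had an unadjusted p under 0.05, where 5.22% of all genes did. The largest differences were 0.20 for Neat1, which rests on miR-144 replicate 4, and -0.13 for Snhg5, each on the log2 scale. Without that replicate the difference of Neat1 was -0.08. With any 1 sample left out, the difference of Snhg5 ranged from -0.18 to -0.070.

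The ratio of 2 RNAs in the same sample does not depend on the factor by which that sample is scaled. The log2 ratio of Neat1 to Malat1, the paraspeckle against the speckle RNA, was -1.84 ± 0.25 in control, -2.26 ± 0.62 with miR-144 and -2.13 ± 0.20 with miR-451a (SD, n = 5 each). The differences from control were -0.42 and -0.29 (two-sided exact permutation test, p = 0.190 and 0.0952, adjusted p = 0.286 for both over 6 ratio comparisons). Without miR-144 replicate 4 the first was -0.16, and with Gm27505 in place of Neat1 it was -0.12. The log2 ratio of Gas5 to Malat1 was -4.39 ± 0.15, -4.38 ± 0.20 and -4.58 ± 0.24 in the same order (SD, n = 5 each). The differences from control were 0.004 and -0.19 (exact permutation test, p = 0.984 and 0.175, adjusted p = 0.984 and 0.286). Between miR-451a and miR-144 the differences were 0.13 for Neat1 and -0.20 for Gas5 (exact permutation test, p = 0.841 and 0.183, adjusted p = 0.984 and 0.286). The smallest p that 5 against 5 samples allow is 0.00794, and none of the 6 comparisons passed the test.

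**Figure D5:**
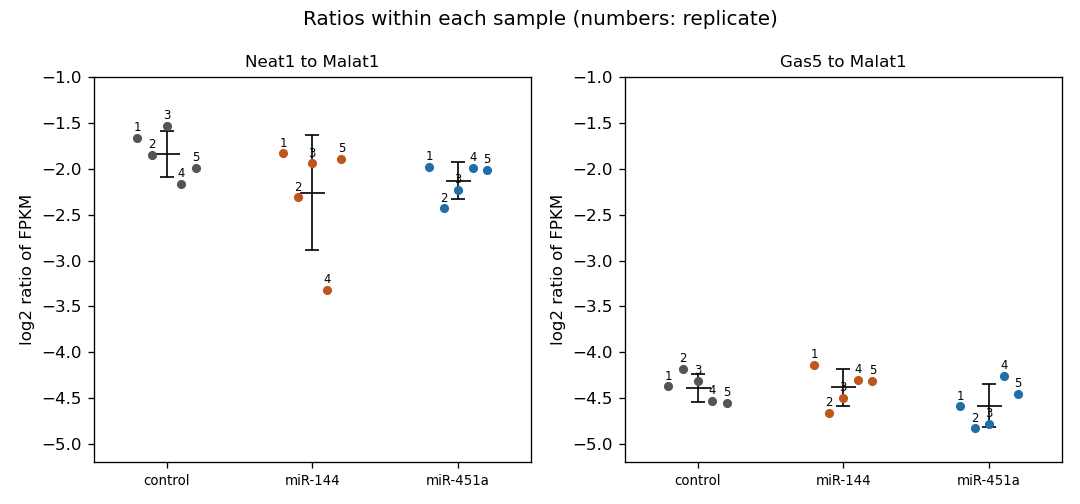
Log2 ratio of the FPKM of Neat1 (left) and Gas5 (right) to that of Malat1 in each sample, with replicate numbers beside the points and the mean and SD of each group in black. The groups overlapped for both ratios, and the lowest Neat1 ratio, -3.32, was that of miR-144 replicate 4.

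The snoRNAs that the hosts carry were mostly at low values. Of 27 snoRNA rows annotated within these genes, in which Snord80 and Snora16a have 2 rows each, 11 reached 1 FPKM in any sample and 2 did in every sample, both within Gas5. The highest was Gm22357, at 9.78 to 19.2 FPKM, with means of 14.36 FPKM in control, 15.63 with miR-144 and 14.03 with miR-451a. Snord80 (ENSMUSG00000105780) had 2.13 ± 0.528 FPKM in control, 2.95 ± 0.612 with miR-144 and 2.63 ± 0.454 with miR-451a (SD, n = 5 each), of which the miR-144 rise passed (adjusted p = 0.0272 in limma) and the miR-451a difference did not (adjusted p = 0.134). The miR-144 call was lost after median centring and after quantile normalization. A second row for Snord80 at the same place (ENSMUSG00000065735) was below 0.001 FPKM in all samples, and Snora24 of Snhg8 had means of 1.66, 1.92 and 1.21 FPKM and did not pass (adjusted p = 0.547 and 0.228 in limma). SnoRNAs are shorter than the fragments of most RNA-seq libraries, and their rows overlap those of the hosts.

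Among 12 other snoRNA host lncRNAs in the table, 6 were in the fit, and 3 of them were higher with each miRNA and none lower (47.1% and 48.1% of all genes were higher), with medians of 0.20 and 0.27 on the log2 scale. Zfas1, a host at the highest level in this list, rose from 7.61 ± 1.07 FPKM to 16.8 ± 2.46 with miR-144 and 16.0 ± 1.07 with miR-451a (SD, n = 5 each). Its log2 fold changes were 1.05 and 0.98 (adjusted p = 1.18e-07 and 2.28e-07 in limma), above those of all 9 RNAs described here. Snhg3 was 4.49 ± 1.08, 4.39 ± 0.603 and 4.23 ± 0.942 FPKM and did not pass (adjusted p = 0.950 and 0.702 in limma). Of 7 other lncRNAs in the fit, 4 were higher and 2 lower with each miRNA (medians 0.19 and 0.24, with 20.1% and 20.3% of all genes lower), with the largest rise in Peg13, an imprinted lncRNA (log2 fold changes 0.81 and 0.88), and the largest fall in Mir22hg, the host of miR-22 (-0.62 and -0.71). The one at the highest level, 2900097C17Rik, fell from 59.6 ± 2.59 to 50.7 ± 1.63 and 50.7 ± 1.53 FPKM (SD, n = 5 each, adjusted p = 3.05e-05 and 2.99e-05 in limma). After median centring 3 of these 7 were higher and 3 lower with miR-144, and 2 were higher and 2 lower with miR-451a.

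The proteins of the nuclear bodies were counted next. Of 12 paraspeckle proteins, 9 were higher and 0 lower with each miRNA, where 47.1% and 48.1% of all genes were higher, with medians of 0.26 and 0.31 on the log2 scale. Nono, a core paraspeckle protein, rose from 35.3 ± 0.954 FPKM to 47.4 ± 1.63 and 47.4 ± 2.35 (SD, n = 5 each, log2 fold change 0.41 in each, adjusted p = 8.66e-08 and 8.26e-08 in limma), and Tardbp (TDP-43) had the largest rise, 0.50 in each. Smarca4 was 24.7 ± 0.736, 24.2 ± 0.366 and 24.9 ± 0.757 FPKM (SD, n = 5 each) and did not pass. After median centring 5 were higher with each, and 1 and 2 were lower, where 30.8% and 31.3% of all genes were higher and 30.7% and 31.8% lower. These shares also apply to the other lists after centring. Of 12 nuclear speckle proteins, 9 were higher and 2 lower with each miRNA (medians 0.25 and 0.26), and after median centring 6 and 5 were higher and 3 and 2 lower. Srsf2, at the highest level, rose by 0.10 and 0.12 on the log2 scale. The largest rise was that of Clk1, a kinase of splicing factors, from 8.36 ± 0.475 to 17.2 ± 0.354 and 17.1 ± 0.479 FPKM (SD, n = 5 each, adjusted p = 2.95e-12 and 2.96e-12 in limma), and the largest fall that of Srpk1, another such kinase (log2 fold changes -0.17 and -0.16).

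The 17 snoRNP proteins in the fit, which bind and process snoRNAs, had medians of 0.05 and 0.02, with 5 higher and 2 lower with miR-144 and 5 higher and 3 lower with miR-451a, where 47.1% and 48.1% of all genes were higher and 20.1% and 20.3% lower. After median centring 2 were higher and 8 lower in each. Nhp2, a protein of box H/ACA particles, fell from 20.7 ± 1.28 FPKM to 17.2 ± 0.913 and 17.7 ± 0.928 (SD, n = 5 each, adjusted p = 0.00026 and 0.00123 in limma), Nolc1, a nucleolar phosphoprotein, fell most (log2 fold changes -0.26 and -0.25), and Tcof1, a nucleolar factor, rose (0.34 and 0.40). Of 14 nonsense-mediated decay factors, with medians of 0.18 and 0.21, 9 passed as higher for miR-144 and 8 for miR-451a (47.1% and 48.1% of all genes), while Smg5 alone was lower, from 15.5 ± 0.721 FPKM to 9.16 ± 0.610 and 8.92 ± 0.654 (SD, n = 5 each, log2 fold changes -0.70 and -0.74). Smg1, the kinase of Upf1, rose most (0.39 and 0.42), and Eif4a3, at the highest level, did not pass (0.03 and -0.01). After median centring 5 were higher in each, and 3 and 5 were lower. Of 20 mRNAs with a 5′ TOP, 13 were higher and 0 lower with each miRNA (47.1% and 48.1% of all genes were higher), with medians of 0.23 and 0.25. Eef1a1, an elongation factor at the highest level, rose by 0.33 and 0.34 on the log2 scale and Npm1 by 0.49 and 0.54, while Rplp1 did not pass (-0.08 and -0.13). After median centring 9 and 10 were higher, and 2 and 6 lower, while after quantile normalization 13 and 15 were higher and 0 lower (32.9% and 33.7% of all genes were higher and 28.7% and 29.4% lower).

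In the Kcnq1ot1 domain 5 of 11 genes were in the fit, of which 1 was higher with each miRNA, and 1 and 2 were lower. Among all genes 47.1% and 48.1% were higher and 20.1% and 20.3% lower, which also applies to the next lists. Cdkn1c, a cell cycle inhibitor that Kcnq1ot1 is known to silence, fell from 8.47 ± 1.14 FPKM to 4.80 ± 0.685 and 4.08 ± 0.426 (SD, n = 5 each, adjusted p = 1.23e-05 and 9.56e-07 in limma), and Cd81, a tetraspanin, rose from 12.7 ± 0.818 to 24.4 ± 1.90 and 25.8 ± 2.30 FPKM (adjusted p = 1e-08 and 3.63e-09). Of 8 genes beside Malat1 and Neat1, 2 were higher with each miRNA, 3 were lower with miR-144 and 2 with miR-451a (medians 0.09 and 0.10), with Ehbp1l1 rising most by the mean of both (0.41 in each) and Ltbp3 falling most (-0.45 and -0.37). Of 4 genes of the glucocorticoid pathway that Gas5 is known to act on, 1 was lower with each miRNA, while 3 rose in the miR-144 and 2 in the miR-451a comparison (medians 0.24 and 0.16). After median centring and after quantile normalization 1 was higher and 1 lower in each. Nr3c1, the receptor, rose (0.51 and 0.58, adjusted p = 0.0108 and 0.00464 in limma), and Tsc22d3, a target of it, fell (-0.39 and -0.37, adjusted p = 0.0102 and 0.0127). The other targets, Fkbp5 and Per1, had means of 5.78 and 5.95 FPKM in control, 6.47 and 7.79 with miR-144 and 6.44 and 6.92 with miR-451a.

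Of 13 mitochondrially encoded genes, 12 were lower with each miRNA, where 20.1% and 20.3% of all genes were lower, with medians of -0.40 and -0.42. After quantile normalization 7 were lower and 1 was higher in each, where 28.7% and 29.4% of all genes were lower, with medians of -0.09 and -0.14. As deposited, mt-Co1, at the highest level, and mt-Nd3, with the largest fall, changed by -0.12 and -0.69 on the log2 scale with miR-144 and by -0.13 and -0.73 with miR-451a, while mt-Atp6 did not pass (0.69 and 0.68). Of 3 RNAs that lack a poly(A) tail in the fit, Rn7sk alone passed, where 47.1% and 48.1% of all genes were higher, rising from 3.24 ± 0.366 to 9.60 ± 2.92 and 7.88 ± 2.59 FPKM (SD, n = 5 each). Rn7s1 and Rn7s2 had means of 2.90 and 2.72 FPKM in control, 1.83 and 1.84 with miR-144 and 3.27 and 3.31 with miR-451a, so that the list medians were -0.38 and 0.06.

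Within the groups, the RNAs also varied from sample to sample. After the group means were subtracted, Gas5 and Snhg8 had the highest correlation among the members above 1 FPKM (Pearson r = 0.84 over 15 samples), followed by Snhg1 and Snhg12 (r = 0.77), while Neat1 and Snhg8 had the lowest (r = -0.09). The genes most like each RNA in this way were Rpl17-ps10 and Rpl27a for Snhg8 (r = 0.94 for each, both of ribosomal protein families), Tbca and Gm8355 for Gas5 (r = 0.93 and 0.91), Msl3 and Ppid for Malat1 (r = 0.89 and 0.88) and Phc1 and Brd3 for Neat1 (r = 0.89 for each). The values of Neat1 rest on miR-144 replicate 4, since without it r was 0.06 with Phc1, 0.48 with Brd3 and 0.17 with Snhg8 (14 samples). The genes closest to the others were Magoh and Podnl1 for Snhg1 (r = 0.86 and 0.85), Mpg and Gm5637 for Snhg5 (r = 0.83 for each), Hmga2 and Tnfrsf10b for Snhg12 (r = 0.86 and 0.83) and Pgm2l1 and Hdgfl3 for Snhg15 (r = 0.88 and 0.86). These values are descriptions, each the highest of 11419 genes over 15 samples that share their scaling within a sample.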

How the data were processed

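RNA-seq of TAMs isolated by FACS was analysed in 15 samples, grouped and numbered from the sample labels. The authors sequenced on the Illumina HiSeq platform and deposited FPKM per gene. The labels name FastQC 0.11.2, STAR and StringTie, while the build, strandedness and a test for the RNA-seq are not given in the sources used here. FPKM is already divided by depth and length, so a few abundant genes can shift all others.

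For group comparisons, log2(FPKM + 1) of the 11419 genes whose mean reached 1 FPKM was fitted in limma 3.58.1 (R 4.3.3) to all 3 groups at once with a trended prior, and p-values were adjusted by Benjamini-Hochberg. Kcnq1ot1 came from the fit without that filter. The step was tested on simulated data. Ratios were compared with two-sided exact permutation tests, adjusted over 6 comparisons. Tried as alternatives were no filter, a minimum mean of 5 FPKM, a pseudocount of 0.1, 4 scalings, the replicate block, no trend, only the 2 groups compared and each of 15 samples left out. For the ratios they were 1 FPKM added, sign flips over same-numbered pairs and samples left out. Reading Gm27505 in place of Neat1, and the correlations of Neat1 without miR-144 replicate 4, were added after the values were seen, and 2 rules for C and T runs were tried.

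The RNAs and gene lists were chosen with earlier results of these data known. Named from each gene list were the gene with the highest mean, the largest rise and the largest fall, plus genes that overlap a member and the 2 genes most like each member. Some further list genes were also named, such as Fkbp5, Per1, Rn7s2 and cell type markers. Not all rows that overlap a member were named. Coordinates are from GENCODE M21 (GRCm38), which holds 99.67% of the identifiers. Python 3.11.15, numpy 2.4.6, pandas 2.3.3 and matplotlib 3.10.9 were used.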

Additional observations from a re-analysis of the deposited data

Results flagged for a closer look

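Of 30 groups of 5 samples checked (the 9 RNAs and Gm27505 in 3 groups), 2 held a sample whose gap to its nearest neighbour was over 0.71 of the whole range of the group, where chance gives about 1.5. Neat1 in miR-144 replicate 4 was 24.6 FPKM, with a gap of 0.851 of the range, while the other 4 samples of the group were at 63.6 to 70.4 FPKM. Gm27505, inside Neat1, was 591 FPKM in the same sample. Gas5 in miR-144 replicate 1 was 13.8 FPKM, with a gap of 0.719 of the range, and the other 4 samples were at 12.0 to 12.5 FPKM. Without that replicate Gas5 stayed higher with miR-144 than in control, with a log2 fold change of 0.31 (adjusted p = 0.00879 in limma).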

How the results depend on the processing

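The count of RNAs called against control was 5 with each miRNA, where 47.1% and 48.1% of all genes were higher. With a sample left out it was 5 to 6 with miR-144 and 4 to 6 with miR-451a. The share of all genes in those fits is not given here. With miR-451a it was 3 after median centring and 2 after quantile normalization. These counts include Kcnq1ot1 as lower after median centring (log2 fold changes -0.12 and -0.13, adjusted p = 7.41e-07 and 3.15e-07 in limma), which follows from the construction, since the same amount is subtracted from a gene near 0 FPKM as from all others. Snhg1 was lower with miR-144 after quantile normalization (-0.20, adjusted p = 0.0292 in limma). Snhg15 was higher with miR-144 after both rescalings and with miR-451a after rescaling to TPM (0.24, adjusted p = 0.0241 in limma). Gas5 with miR-451a was also lost without a filter (adjusted p = 0.0597 in limma) and with only the 2 groups compared (0.0569), with its log2 fold change of 0.23 not moved, and in the second Neat1 passed (0.00924). Between miR-451a and miR-144 the count was 0 under all alternatives run.

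Signs that turned belonged to values that had not passed the test. After rescaling to TPM, Neat1 and Snhg1 with miR-144 were 0.016 and 0.020. With miR-451a, Snhg1 was -0.13 after median centring and -0.16 after quantile normalization, and Snhg15 was -0.0062 and -0.028. Kcnq1ot1 was -0.017 and -0.020 after quantile normalization, and between the miRNAs -0.0090 after median centring and -0.0026 after quantile normalization. With Gm27505 in place of Neat1, the change with miR-144 was 0.25, that between the miRNAs -0.11 and the ratio to Malat1 between the miRNAs -0.19. With 1 FPKM added, the ratio of Gas5 to Malat1 with miR-144 was -0.026. The turns after median centring follow from the construction, since the same amount is subtracted from all genes of a sample. The cause of the other turns was not tested.

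With a sample left out, the ratio of Gas5 to Malat1 with miR-144 ranged from -0.056 to 0.074, and the ratio of Neat1 to Malat1 from -0.53 to -0.16 with miR-144 and -0.13 to 0.24 between the miRNAs. Neat1 ranged from -0.14 to 0.23 with miR-144 and -0.078 to 0.29 between the miRNAs, and Snhg1 from -0.067 to 0.0028 with miR-144, -0.041 to 0.063 with miR-451a and -0.0066 to 0.097 between the miRNAs. Between the miRNAs Snhg12 ranged from -0.0004 to 0.12, Snhg15 from -0.073 to 0.027 and Kcnq1ot1 from -0.0034 to 0.0058.

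With the replicate block 5, 5 and 0 RNAs were called in the 3 comparisons, where 5408, 5511 and 0 of all 11419 genes were higher. Same-numbered samples correlated by -0.0122, 0.140 and 0.101 on average, and not every pair was over 0.1. Samples with different numbers were not set beside them, so whether the numbers pair the samples cannot be told. The sign-flip tests of the ratios gave adjusted p of 0.375 to 1, but 5 pairs cannot give a p below 0.0625, so these tests could not pass. Sequencing depth is known only approximately, so that no counting error is given.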
